A study of Bos taurus with 8 samples.

Results

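The genes described here encode the parts of the elastic fiber and the lysyl oxidases that cross-link it. They are elastin (ELN), the fibrillins FBN1, FBN2 and FBN3, the microfibril glycoprotein MFAP5, and the lysyl oxidases LOX, LOXL1, LOXL2, LOXL3 and LOXL4. They were taken by symbol, 10 of the 30983 genes in the deposited gene table, by a rule that used no measured values. Earlier results of these data were known when they were chosen, so the choice was not blind.

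Testis tissue of Chinese Red Steppes cattle, a Chinese dual-purpose breed, was compared at 2 ages. The immature group came from 1-day-old calves that were castrated, and the mature group from slaughtered bulls of 24 months, so that the way of collection and the age cannot be told apart. The tissue was testicular lobules, no treatment was given, and each age had 3 animals with 1 mRNA library per animal, so the replicates were separate animals. Small RNA was sequenced from 1 pool of 3 animals per age.

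Elastic fibers let a tissue stretch and recoil. Fibrillins polymerise into microfibrils outside the cell, tropoelastin, the soluble form of elastin, is deposited on this scaffold, and lysyl oxidases, copper-dependent amine oxidases, turn lysine side chains of elastin and collagen into reactive aldehydes that form cross-links. In the testis the fibers are known from the tubule wall, where contractile peritubular myoid cells lie, and from vessel walls and the capsule, and elastin is in general made early in life and turned over slowly.

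The 6 mRNA libraries held 14139087 to 15846257 counts. Levels are given as CPM, the counts of a gene scaled to one common library total with normalisation factors, and they may be compared between ages for 1 gene but not between genes, which differ in length. Calls in either direction needed an adjusted p below 0.05 in edgeR's quasi-likelihood test together with a log2 fold change (mature over immature) beyond 1 in size. Of 19972 genes tested, 62% were called, 31.7% higher and 30.4% lower, and 81.7% had groups that did not overlap. The make-up of the tissue differed with age. All 10 late germ cell markers were higher in mature testis, where their summed level was 13136 to 20175 CPM against 85.0 to 88.9 CPM in immature testis. Markers of most somatic cells moved the other way. Of the Sertoli cell markers 9 of 10 were lower and 1 was higher (10026 to 13465 CPM in immature and 1593 to 1761 CPM in mature testis), of the leukocyte markers 8 of 10 were lower and 2 higher (599 to 1331 CPM against 393 to 475 CPM), and of the Leydig cell markers 3 of 8 were lower and 1 higher, with summed levels that overlapped (1910 to 3100 CPM and 1547 to 2892 CPM). Among stromal cells, 8 of 10 smooth muscle and peritubular markers were lower (2360 to 3463 CPM in immature and 757 to 793 CPM in mature testis), 9 of 10 fibroblast markers lower (14374 to 33164 CPM against 516 to 1140 CPM) and 10 of 10 endothelial markers lower (371 to 582 CPM against 75.8 to 90.7 CPM). In whole tissue, fewer cells of a type, less RNA per cell and a larger share of RNA from other cells cannot be told apart. The part of these marker shifts in the results on fiber genes was not tested except by the ratios to stromal markers given further on. Immature library 3 had the highest summed fibroblast level. Immature library 1 stood apart among the calves by epididymis and excurrent duct markers, with a summed level of 720 CPM against 37.3 and 39.6 CPM in immature libraries 2 and 3. The duct marker WFDC2 had 7019 counts there against 108 and 6 in the other immature libraries. Each other matched duct marker also had its highest count among the calves in library 1. In the bulls the duct list summed to 261 to 297 CPM. This rested mainly on EPCAM (2069, 1998 and 2409 counts) and DEFB119 (1828, 1926 and 1699 counts).

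All 10 genes passed the filter on low counts. In mature testis, 7 were called lower (ELN, FBN1, FBN3, LOX, LOXL2, LOXL3 and LOXL4), 1 was called higher (LOXL1), and FBN2 and MFAP5 were not called, against 30.4% lower and 31.7% higher over all genes tested. Their median log2 fold change was -2.90, and that of all genes tested was -0.04. The groups did not overlap for 9 of the 10, all but MFAP5, a share near the 81.7% of all genes. Without immature libraries 1 and 3, a setting added after the data were seen, 6 of them were called lower and 1 higher, with the lone immature library assumed to vary as the mature ones did.

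**Figure D1:**
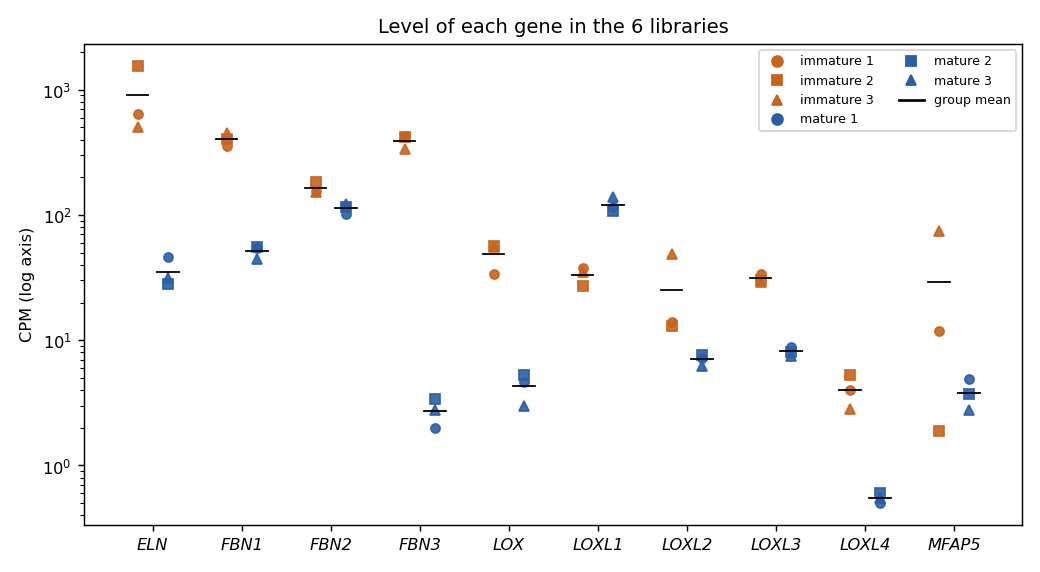
Level in CPM, on a log axis, of each of the 10 genes in the 3 immature (orange) and 3 mature (blue) libraries, with marker shapes for replicate numbers and black bars for group means. LOXL1 is the gene whose mature libraries lie above its immature ones, and the 3 immature libraries of MFAP5 spread from 1.88 to 74.5 CPM around the mature ones.

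Elastin, the elastic core of the fiber, was measured at 642, 1552 and 505 CPM in immature replicates 1, 2 and 3, and at 46.0, 28.2 and 31.3 CPM in mature replicates 1, 2 and 3. The lowest immature library was thus above the highest mature one, although immature replicate 2 stood well above the other calves. The mean fell from 899.7 ± 569 to 35.2 ± 9.53 CPM (SD, n = 3 each), a 25.6-fold lower level, with a log2 fold change of -4.68 (SE 0.52, adjusted p = 0.000193, edgeR). The log2 fold change lay between -4.97 and -4.03 when any 1 library was left out, the smallest being without immature replicate 2, and was -5.47 without immature replicates 1 and 3. The highest immature library was 3.07 times the lowest, and 12.1% of all genes tested varied as much or more among the calves.

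Fibrillin 1, the main backbone of microfibrils and the gene mutated in human Marfan syndrome, was at 355, 403 and 453 CPM in the immature libraries and 54.1, 55.4 and 44.3 CPM in the mature ones. Both groups were tight and far apart. The mean fell from 403 ± 48.6 to 51.3 ± 6.05 CPM, 7.86-fold lower, with a log2 fold change of -2.98 (SE 0.14, adjusted p = 3.7e-07, edgeR).

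FBN2, the fibrillin known in human and mouse from developing tissues, differed least. It was at 154, 182 and 153 CPM in immature and 101, 116 and 122 CPM in mature testis. The mature libraries were all below the immature ones, by a small margin. The means were 163 ± 16.3 and 113 ± 10.7 CPM, with a log2 fold change of -0.53 (SE 0.12, adjusted p = 0.00355, edgeR), which passed the test on p but not the fold threshold.

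FBN3, known in human from fetal tissues and inactive as a gene in mouse, had the largest fold change of the 10 genes. Its level was 425, 417 and 338 CPM in the calves and 2.0, 3.42 and 2.76 CPM in the bulls. In counts this was 6353, 6429 and 5103 against 32, 51 and 40, so the low level in mature testis still rested on reads in every library. The mean fell from 393 ± 48.3 to 2.73 ± 0.709 CPM, 144-fold lower, with a log2 fold change of -7.17 (SE 0.22, adjusted p = 3.55e-08, edgeR).

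MFAP5, also named MAGP2, binds fibrillin microfibrils. It was at 11.9, 1.88 and 74.5 CPM in immature and 4.89, 3.69 and 2.76 CPM in mature testis. The groups overlapped, since immature replicate 2 was below all 3 bulls while immature replicate 3 was far above every other library. The log2 fold change of -2.95 (SE 1.21, adjusted p = 0.0616, edgeR) did not pass the test. Among the calves the highest library was 39.6 times the lowest, a spread reached by 3.53% of all genes tested, while the median gene had a ratio of 1.42. MFAP5 was the gene of the 10 whose value turned on single libraries most, with a log2 fold change of -0.86 without immature replicate 3, -3.52 without immature replicate 2, and 1.00 without immature replicates 1 and 3 together. Its adjusted p ranged from 0.0061 to 0.364 over 17 alternatives and was under 0.05 in 3 of them, namely DESeq2 (0.0292), upper-quartile scaling (0.0444) and without immature replicate 2 (0.0061).

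LOX, the founding lysyl oxidase, oxidises both elastin and fibrillar collagen. It was at 33.8, 56.5 and 55.4 CPM in the immature libraries and 4.63, 5.30 and 2.97 CPM in the mature ones. Every calf was above every bull. The mean fell from 48.6 ± 12.8 to 4.30 ± 1.20 CPM, 11.3-fold lower, with a log2 fold change of -3.49 (SE 0.29, adjusted p = 8.33e-06, edgeR).

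LOXL1, which mice need to renew elastic fibers in adult tissue, was the 1 gene that rose. It was at 37.8, 27.2 and 35.1 CPM in immature testis and 117, 107 and 138 CPM in mature testis. The lowest bull was well above the highest calf. The mean rose from 33.4 ± 5.50 to 121 ± 15.9 CPM, 3.62-fold higher, with a log2 fold change of 1.86 (SE 0.16, adjusted p = 1.15e-05, edgeR), and the value stayed between 1.65 and 2.14 over 17 alternatives.

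LOXL2, which cross-links collagen IV of basement membranes, was at 13.9, 12.9 and 48.9 CPM in immature and 7.27, 7.65 and 6.21 CPM in mature testis. The groups did not overlap, but immature replicate 3 was far above the other calves. The mean fell from 25.2 ± 20.5 to 7.04 ± 0.747 CPM, 3.58-fold lower, with a log2 fold change of -1.84 (SE 0.54, adjusted p = 0.0161, edgeR). Without immature replicate 3 it was -0.93, past the test on p but under the fold threshold. The adjusted p ranged from 0.000452 to 0.0652 over 17 alternatives, and it was above 0.05 with limma-voom (0.0522), without mature replicate 1 (0.0529) and without mature replicate 3 (0.0652).

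LOXL3, which in mice is needed for the collagen of palate and spine, was at 34.1, 30.1 and 29.2 CPM in immature and 8.89, 8.05 and 7.52 CPM in mature testis. Calves and bulls were clearly separate. The mean fell from 31.1 ± 2.61 to 8.15 ± 0.694 CPM, 3.81-fold lower, with a log2 fold change of -1.93 (SE 0.15, adjusted p = 6.26e-06, edgeR). In the RefSeq table of the ARS-UCD2.0 assembly, which is not the build of these counts, LOXL3 overlaps HTRA2, a mitochondrial protease gene, and reads of the overlap may have been assigned to either. HTRA2 had 478, 428 and 348 counts in immature and 247, 205 and 229 in mature testis, with a log2 fold change of -0.88 (SE 0.17, adjusted p = 0.00123, edgeR), smaller in size than that of LOXL3.

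LOXL4, the remaining lysyl oxidase, was at 4.02, 5.25 and 2.85 CPM in immature and 0.501, 0.604 and 0.552 CPM in mature testis. These levels rested on 60, 81 and 43 counts in the calves and 8, 9 and 8 counts in the bulls, the lowest counts of any of the 10 genes in mature testis. The groups were separate, with a 7.23-fold lower mean and a log2 fold change of -2.85 (SE 0.36, adjusted p = 0.000104, edgeR).

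**Figure D2:**
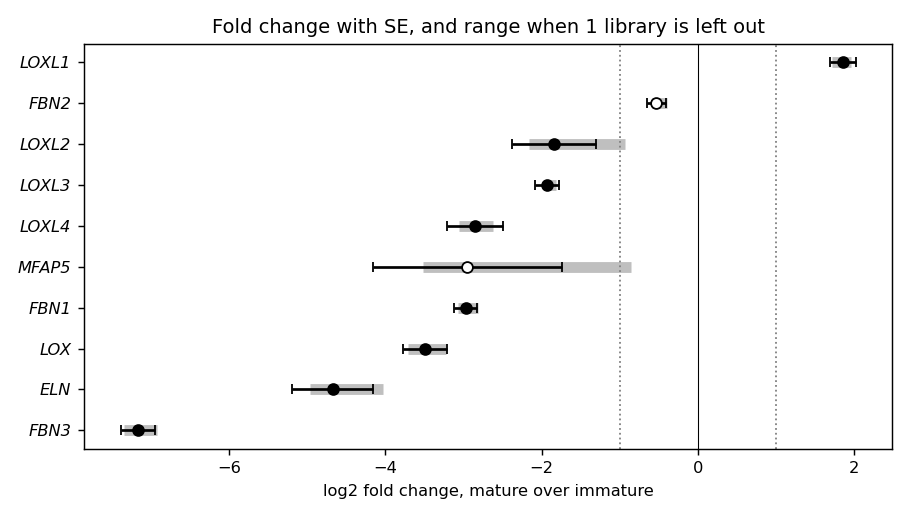
Log2 fold change of each gene, mature over immature, with its standard error (black bars) and the range of values when any 1 library was left out (grey bands). Filled points were called, open points were not, dotted lines mark the fold threshold of 1, and the wide bands belong to MFAP5 (-3.52 to -0.86) and LOXL2 (-2.16 to -0.93).

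The make-up of the lysyl oxidase family differed between the ages. LOXL1 held 30.6%, 20.6% and 20.5% of the summed counts of the 5 lysyl oxidases in the calves and 84.6%, 83.3% and 88.9% in the bulls, a gain of 61.7 percentage points in the mean. LOX held 27.4%, 42.8% and 32.3% in the calves and 3.36%, 4.11% and 1.91% in the bulls, a loss that brought its mean from 34.2 ± 7.90% to 3.12 ± 1.12%. Immature testis thus had a mixed family in these libraries, and in mature testis LOXL1 took most of its counts. The mean share of LOXL3 went from 22.5 ± 5.28% to 5.84 ± 0.881%, that of LOXL2 from 16.5 ± 10.4% to 5.06 ± 0.986%, and that of LOXL4 from 2.96 ± 1.19% to 0.395 ± 0.0630%. The LOXL2 share was 28.5% in immature replicate 3 against 11.3% and 9.77% in the other calves, and its difference in means of -11.5 percentage points was -5.46 without that library and -4.71 without immature replicates 1 and 3. The summed level of the 5 genes was 124, 132 and 171 CPM in immature and 138, 129 and 156 CPM in mature testis. These overlapping sums had a ratio of mature to immature of 0.990 (exact permutation test, two-sided, p = 0.9), which moved between 0.929 and 1.10 when any 1 library was left out. The sums were compared after the single genes had been seen. Such sums over a family, also that of the fibrillins below, depend on gene length, so they do not give a number of messages.

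The fibrillin family changed as well, toward FBN2. FBN2 held 16.5%, 18.2% and 16.2% of the summed fibrillin counts in the calves and 64.3%, 66.3% and 72.1% in the bulls. FBN3 held 45.5%, 41.6% and 35.8% in the calves and 1.28%, 1.96% and 1.64% in the bulls. FBN1 held 38%, 40.2% and 48.0% against 34.5%, 31.7% and 26.3%, the smallest shift of the 3. Unlike the lysyl oxidases, the fibrillins fell in sum, from 959.9 ± 35.9 to 167 ± 9.02 CPM, 5.75-fold lower. Shares in a family are tied to each other, and they depend on gene length, so only the same share is compared across ages. In the exact permutation test (two-sided) each of the 8 shares gave p = 0.1, also 0.1 after adjustment over the 8, and 3 animals against 3 cannot give a smaller p. The groups did not overlap for any of the 8 shares.

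**Figure D3:**
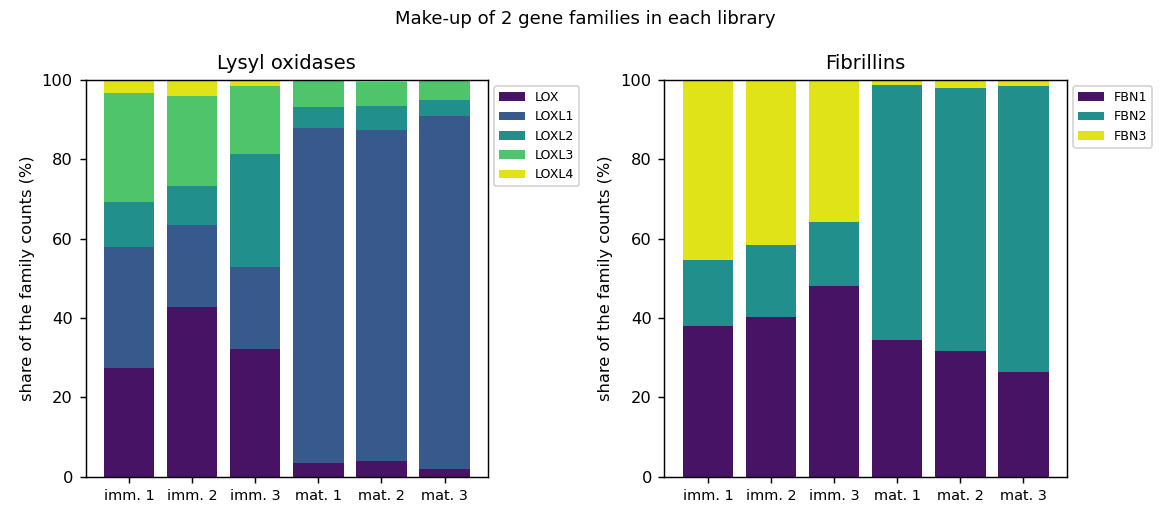
Share, in percent, of the summed counts of the 5 lysyl oxidases (left) and of the 3 fibrillins (right) held by each gene in each of the 6 libraries (imm., immature; mat., mature). LOXL1 takes 83.3% to 88.9% of the lysyl oxidase counts in the mature libraries and FBN2 takes 64.3% to 72.1% of the fibrillin counts.

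Since stromal markers were lower in mature testis, the count of each gene was also set against the summed counts of smooth muscle and peritubular markers and of fibroblast markers in the same library. In the calves the fibroblast sum rested mainly on collagens. COL1A1, COL1A2 and COL3A1 had 109255, 60960 and 67802 counts in immature replicate 1, against 20794 for the next marker, DCN. In mature replicate 1 they had 5803, 3539 and 3066 counts, each above OGN at 2284. In mature replicate 2 they had 2694, 2190 and 1814 counts, against 1923 for OGN. In mature replicate 3 they had 1486, 1155 and 1079 counts, each below OGN at 1867. Ratios to this list are thus, in the calves, largely ratios to these collagens. The collagens also weighed in the ratios of the bulls, most in mature replicate 1. LOXL1 and FBN2 were higher relative to both lists, and FBN3 was lower relative to both. The lists themselves fell, with median log2 fold changes of -2.35 (smooth muscle) and -4.76 (fibroblast), against -0.04 over all genes tested. A gene that moved as the median gene did would thus also be higher relative to both. How many of all genes tested were so was not computed. Relative to the smooth muscle list, the log2 difference (mature minus immature) was 3.74 for LOXL1, 1.35 for FBN2 and -5.30 for FBN3. Relative to the fibroblast list it was 6.60, 4.21 and -2.44. The groups were separate for these 3 genes under both lists.

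For the other genes the answer turned on which list was used. LOX, FBN1 and LOXL4 were lower relative to the smooth muscle list (-1.61, -1.09 and -0.88) and higher relative to the fibroblast list (1.25, 1.76 and 1.98). ELN was lower relative to the smooth muscle list by a log2 difference of -2.65, and overlapped between ages relative to the fibroblast list (0.21, exact p = 0.8). LOXL2, LOXL3 and MFAP5 overlapped between ages relative to the smooth muscle list (0.33, -0.05 and 0.20, exact p = 0.9, 0.8 and 0.8) and were higher relative to the fibroblast list (3.19, 2.81 and 3.06). The ratios of MFAP5 moved most with single libraries, from -1.11 without immature replicate 2 to 1.65 without immature replicate 3 relative to the smooth muscle list, and from 2.0 to 4.03 relative to the fibroblast list. The falls of LOX, FBN1 and LOXL4 thus lay between those of the smooth muscle and the fibroblast lists. Where groups were separate, the exact permutation test (two-sided) gave p = 0.1, the smallest possible, and 0.125 after adjustment over the 20 ratios.

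**Figure D4:**
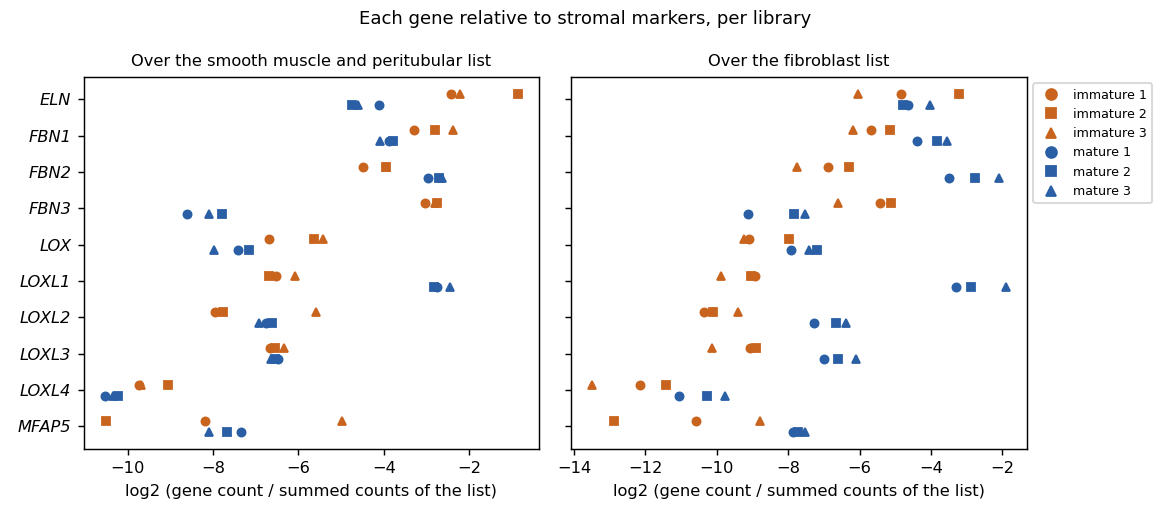
Log2 ratio of the count of each gene to the summed counts of the smooth muscle and peritubular list (left) and of the fibroblast list (right), with 1 point per library, immature in orange and mature in blue. The mature points of LOXL1 and FBN2 lie to the right of the immature ones in both panels and those of FBN3 to the left, while LOX, FBN1 and LOXL4 change side between the panels.

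Genes that work with elastic fibers were examined as 6 lists. Their counts stand beside 30.4% lower and 31.7% higher, and a median of -0.04, over all genes tested. Stromal markers were mostly lower too (8 of 10 smooth muscle, 9 of 10 fibroblast, 10 of 10 endothelial). The list counts alone thus do not set these genes apart from other stromal genes. Of 18 partners of the microfibril, 17 were lower in mature testis and 1 was higher, with a median log2 fold change of -2.81 against -0.04 over all genes. The largest falls were those of ADAMTSL4, a fibrillin-binding protein (116 ± 36.3 to 3.50 ± 0.946 CPM, log2 fold change -5.05, SE 0.31), of MFAP4, an elastin and fibrillin ligand (434 ± 80.9 to 14.1 ± 4.35 CPM, -4.94, SE 0.26), and of MFAP2, the close relative of MFAP5 (209 ± 58.2 to 8.62 ± 0.604 CPM, -4.59, SE 0.23). ADAMTS6, a protease that acts on microfibrils, was the 1 partner that rose, from 13.2 ± 5.60 to 33.9 ± 1.69 CPM (log2 fold change 1.36, SE 0.30, adjusted p = 0.00339, edgeR), with a log2 fold change of 2.27 without immature replicates 1 and 3.

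Of 13 fibulins and other genes of elastin assembly that were tested, 12 were lower and 1 was not called, with a median of -2.01. EFEMP2, or fibulin 4, which brings LOX to tropoelastin, fell from 74.2 ± 13.3 to 6.65 ± 1.63 CPM (log2 fold change -3.48, SE 0.22). SLC2A10, a transporter whose loss causes arterial tortuosity in human, had a log2 fold change of -3.49, and HMCN1, a hemicentin of the fibulin family, one of -3.31.

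The genes that activate lysyl oxidases or supply their copper went both ways. Of 14 tested, 8 were lower, 2 were higher and 4 were not called, with a median of -1.97. BMP1, the protease that removes the LOX propeptide, fell from 117 ± 16.2 to 9.15 ± 2.67 CPM (log2 fold change -3.67, SE 0.24), while its relative TLL2 rose from 1.45 ± 0.184 to 7.78 ± 0.522 CPM (2.41, SE 0.24). The pair of copper pumps also moved in opposite directions. ATP7B, known as the copper exporter of the liver, rose from 13.1 ± 2.07 to 83.4 ± 14.7 CPM (log2 fold change 2.67, SE 0.19, adjusted p = 2.9e-06, edgeR). ATP7A, which loads copper onto secreted enzymes such as LOX and was named after its value was seen, fell from 34.1 ± 2.97 to 8.45 ± 1.45 CPM (log2 fold change -2.01, SE 0.17, adjusted p = 1.09e-05, edgeR). PCOLCE2, an enhancer of procollagen processing, had a log2 fold change of -6.19 (SE 0.19). POSTN, a matrix scaffold for BMP1, had 602, 176 and 1803 counts in immature and 37, 24 and 20 in mature testis. Its log2 fold change of -5.0 (SE 0.95) was -3.86 without immature replicate 3 and -2.69 without immature replicates 1 and 3, still called.

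Fibrillar collagens, the other substrate of lysyl oxidases, had a median of -4.77, with 7 of 11 lower, 1 higher and 3 not called. This was the lowest median of the 6 lists, but without the 50 most abundant genes, which took collagens out of the list, it was -2.58, above those of microfibril partners (-2.77) and of enzymes that cut elastin (-2.64). The log2 fold change was -5.34 (SE 0.61) for COL1A1 and -5.48 (SE 0.44) for COL5A1. COL11A1 had 146 counts over the 3 immature libraries and 1 over the 3 mature ones. The log2 ratio of these sums was -7.19, with a 95% counting interval of -12.50 to -4.68 that leaves out variation between animals. The edgeR log2 fold change was -6.74 (SE 0.72), and -8.57 without mature replicate 1, the library with the 1 mature count. COL11A2, a minor collagen of cartilage, rose from 21.3 ± 9.88 to 49.9 ± 2.59 CPM (log2 fold change 1.22, SE 0.33, adjusted p = 0.0105, edgeR), and without immature replicate 1, 2 or 3 in turn its value lay between 0.90 and 1.53, crossing the fold threshold. The fibroblast markers include 3 of these collagens, so both lists share genes.

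Of 10 tested enzymes that cut elastin and their TIMP inhibitors, 8 were lower and 2 were not called, with a median of -2.74. The largest falls were those of the metalloproteinases MMP14 (log2 fold change -4.13, SE 0.53) and MMP2 (-3.65, SE 0.40) and of the inhibitor TIMP2 (-3.85, SE 0.18). MMP14 was highest in immature replicate 3, and its log2 fold change was -3.42 without that library and -3.27 without immature replicates 1 and 3. Of 12 tested ligands, receptors and mediators of TGF-beta, a growth factor held in latent form on microfibrils, 8 were lower and 4 were not called, with a median of -1.43. Among the lower genes were the receptors TGFBR3 and TGFBR2 and the integrin chain ITGAV, which takes part in freeing TGF-beta, with log2 fold changes of -3.58, -2.92 and -2.84. For TGFBR3 the value was -2.96 without immature replicate 3.

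**Figure D5:**
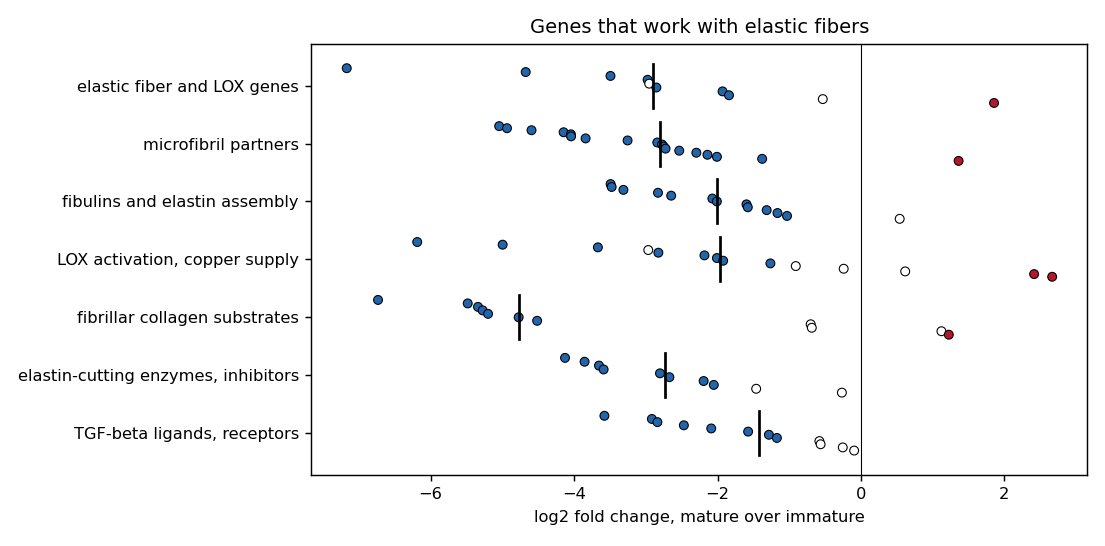
Log2 fold change, mature over immature, of the 10 elastic fiber and lysyl oxidase genes and of the tested genes of 6 lists, with blue points called lower, red points called higher, open points not called and a black bar at each median. The list medians run from -4.77 for fibrillar collagens (-2.58 without the 50 most abundant genes) to -1.43 for the TGF-beta list.

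The 10 genes were not alike over the 6 libraries, and the genes with the nearest profiles differed accordingly. Likeness was measured as the root mean square difference of centred log2 CPM over the 6 libraries, so that smaller is closer. A gene picked in this way tends to share the peak library of its match, so such a shared peak is not a separate result. LOXL1 was nearest to HEXIM2 (0.04), a gene at 4.79 to 6.63 CPM in the calves and 20.3 to 26.8 CPM in the bulls. Next came KIAA1328 (0.08), at 14.2 to 17.5 CPM in the calves and 56.6 to 68.7 CPM in the bulls. LOXL2 was nearest to SCIN (0.08) and MAOA (0.12), which were also highest in immature replicate 3, at 42.1 and 73.7 CPM. MFAP5 had no close match, and its nearest genes SFRP4 (0.69) and CLMP (0.69) shared its peak in immature replicate 3, at 60.2 and 38.7 CPM. ELN was nearest to COL4A5 (0.32), a basement membrane collagen chain, and to MFAP2 (0.33), both of which peaked in immature replicate 2. FBN3 was nearest to FREM2 (0.30) and KLK1 (0.32), and LOX to C15H11orf96 (0.15) and NES (0.15). The nearest genes to FBN1 were RPL23 (0.05) and LRP1 (0.05), to FBN2 PI4K2A (0.05) and PRUNE (0.06), and to LOXL3 EPHB4 (0.04) and ANKRD39 (0.05). Those to LOXL4 were C16H1orf115 (0.10) and FAM234B (0.11), with log2 fold changes of -1.99 and -2.25 against -2.85 for LOXL4. The added 0.5 weighed on this match, since LOXL4 was at 0.501 to 0.604 CPM in the bulls.

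The miR-29 family is known from human and mouse to target the messages of elastin, fibrillin 1 and many collagens, and its sequences are shown because the seed, bases 2 to 8 and here in capitals, is the part that pairs with such targets. They are printed 5′ to 3′ as the deposited miRNA table lists them, with T for U.
bta-miR-29a: cTAGCACCatctgaaatcggtta
bta-miR-29b: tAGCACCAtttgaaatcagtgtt
bta-miR-29c: tAGCACCAtttgaaatcggtta
The bases agcacca stood at positions 2 to 8 of miR-29b and miR-29c and at positions 3 to 9 of miR-29a, whose entry begins 1 base earlier. The capitals of miR-29a thus follow its entry as listed and start 1 base before this shared stretch. In the small RNA pools miR-29a had 14558 counts in immature and 7895 in mature testis, miR-29b had 161 and 159, and miR-29c had 543 and 406. The 5 entries of the family's 3p arm made up 0.371% (95% exact interval 0.365 to 0.377) of 4114402 known bovine miRNA counts in the immature pool and 0.871% (0.853 to 0.890) of 971132 in the mature pool. The share was thus higher and the count lower in the mature pool. With 1 pool per age there was no test, and the intervals cover counting error only.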

How the data were processed

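Poly(A) RNA of 6 testes and small RNA of 2 pools had been sequenced on Illumina instruments. The authors aligned mRNA reads with Hisat2 to Btau_5.0.1 and small RNA reads to miRBase and the genome with BWA, and deposited raw counts per gene and per miRNA. For the counter, annotation, strand setting and tool versions, the answer was not given in the sources used here. Deposited tables of the authors' own comparison hold group signals, log2 fold changes and FDR values beside the same counts (143712 of 143712 were identical) and were not used. No sample column was left over.

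Groups and replicate numbers came from the sample titles. Genes were filtered with filterByExpr, which kept 19972 of 30983, scaled by TMM and tested with edgeR 4.0.16 (robust quasi-likelihood, R 4.3.3), with Benjamini-Hochberg adjustment over all genes tested. Library totals of 14139087 to 15846257 counts set the precision. Shares, sums and ratios to stromal markers (0.5 added to a gene's count) were compared by exact two-sided permutation tests over the 6 libraries in scipy 1.17.1. The programs were tested on simulated data.

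Alternatives were other scaling factors, DESeq2 1.42.0, limma-voom (limma 3.58.1), other filters, a replicate block, no fold threshold, each library left out, and, added after the data were seen, immature replicates 1 and 3 left out together. The genes named are the 10 genes, up to 3 called higher and 3 called lower with the largest fold change per list, and the 2 nearest profiles per gene with a mean of at least 10 CPM, LOC symbols left out. The genes and lists were chosen with earlier results of these data known. Of 201 marker and list genes, 199 were matched by symbol.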

Additional observations from a re-analysis of the deposited data

How the results depend on the processing

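Over 17 alternatives, 1 of the 10 genes was called higher and 6 to 8 lower, the same range as when 1 library was left out, and 160 of 170 log2 fold changes of single genes kept direction and side of the threshold. The exceptions were FBN2 without the fold threshold, LOXL2 and MFAP5. MFAP5 reversed to 1.00 without immature replicates 1 and 3. The 64 recomputed shares kept their direction within the families, although the LOXL2 difference shrank from -11.5 to -5.46 percentage points without immature replicate 3. The ratio of summed lysyl oxidases passed above 1 without immature replicate 3 (1.10), without mature replicate 1 (1.00), without mature replicate 2 (1.03) and without immature replicates 1 and 3 (1.07), and with 1 library left out it lay between 0.929 and 1.10. Relative to stromal markers, 7 of 180 values reversed, for genes whose groups overlapped in the main setting. Relative to the smooth muscle list these were LOXL2 (-0.10 to 1.08 with 1 library left out), LOXL3 (-0.12 to 0.043 with 1 library left out, the highest without immature replicate 3, and 0.16 with the mean log2 marker level) and MFAP5 (-1.11 to 1.65). Relative to the fibroblast list it was ELN (-0.46 to 0.95, and -0.39 with the mean log2 marker level). The value of 0.16 for LOXL3 had p = 0.1 in the exact permutation test (two-sided), the smallest possible. Its result relative to the smooth muscle list thus turned on how the list was summarised. Among list counts, 1 fibulin list gene rose without the fold threshold, 2 fibrillar collagens rose with limma-voom and 2 without immature replicates 1 and 3, and 4 fell, not 7, without the 50 most abundant genes, some of them in that list. Of 102 recomputed list medians 89 moved by less than 0.25 on the log2 scale, all stayed below 0, and the widest move was that of fibrillar collagens from -4.77 to -2.58 without the 50 most abundant genes. The mature miR-29 share was 0.829% of all miRNA counts. Upper-quartile scaling moved the median log2 fold change of all genes from -0.04 to -0.24. The replicate numbers did not pair the animals (correlations of deviations -0.03, -0.02 and -0.01), and a fit with the replicate block called 7 genes lower and 1 higher. The scaling of shares by transcript length was not run, since no transcript lengths were used here.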

Other observations

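Of the 85 genes in the 6 lists, 7 did not pass the filter on low counts, and their counts were read after the results were known. The secreted proteases MMP9, MMP12 and MMP7, which can cut elastin, and the epithelial integrin chain ITGB6 had most of their counts in 1 calf. MMP9 had 266, 10 and 7 counts in immature and 5, 0 and 0 in mature replicates 1, 2 and 3. MMP12 had 79, 1 and 2 counts in the calves, MMP7 had 55, 4 and 4, and both were at 0 in the 3 bulls. ITGB6 had 68, 3 and 4 counts in immature and 4, 2 and 8 in mature testis. Immature replicate 1 was also the library with the high count of the duct marker WFDC2, and no relation between these values was tested. FKBP10, a chaperone of collagen and tropoelastin, had 0 or 1 counts in all 6 libraries, while COL1A1 was at 8740 ± 3805 CPM in the calves. ELANE, the neutrophil elastase, had 2 to 6 counts at both ages, too few to compare. ENG, a TGF-beta co-receptor of endothelium, had 0, 5 and 3 counts in the calves and 0 in each bull. For FKBP10 and ENG, low expression cannot be told apart here from reads that were not assigned to the gene, which was not tested.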
